A study of Mus musculus with 9 samples.

Results

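The genes described here are 9 imprinted genes, H19, Dlk1, Meg3, Peg3, Mest, Plagl1, Zim1, Ndn and Grb10, out of 55536 genes in the deposited tables. They were chosen by name, and each was found by its Ensembl identifier in the mouse annotation for GRCm38. All 9 passed the filter on low counts that left 16213 genes for testing. The study compared granulosa cell tumours of the mouse with normal ovaries by RNA-seq of whole ovary samples. Foxl2, a forkhead transcription factor, maintains the granulosa cells that surround the oocyte. The 3 tumours and the 3 hyperplasias had the genotype FOXL2 WT/C134W, that is, 1 copy carried the C134W change, and the 3 wild-type ovaries had the genotype FOXL2 WT/WT. The labels give no age, strain or treatment, and nothing in them ties the 9 samples to separate animals, so that a p-value reflects the spread among these 9 samples alone. Hyperplasia library 3 and tumour library 3 share a stem in their titles.

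Imprinted genes are expressed mainly or only from the copy inherited from a single parent. DNA methylation laid down in the egg or the sperm marks the 2 copies differently, and many imprinted genes lie in clusters under a shared control region. Several of them set the growth of the embryo and its placenta and are turned down in most tissues after birth. Among the 9 genes, H19, Meg3, Zim1 and Grb10 are known in the mouse as expressed mainly from the maternal copy (Grb10 from the paternal copy in neurons), and Dlk1, Peg3, Mest, Plagl1 and Ndn from the paternal copy. The gene tables add up both copies, so which copy was active was not measured here.

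Each library held 11661820 (tumour library 3) to 20890487 (wild-type library 1) counts on genes. Levels below are in CPM (each count divided by the depth of its library, with edgeR's TMM scaling), unless TPM is named. A count of 3, the floor used here, corresponds to 0.144 to 0.293 CPM, depending on the library. Foxl2 itself read 227 to 388 CPM in tumours, 129 to 339 in hyperplasias and 146 to 203 in wild-type ovaries, and its level does not check the point mutation. The 12 granulosa cell markers summed to 4166 to 5217 CPM in tumours, 1157 to 4357 in hyperplasias and 2003 to 5191 in wild-type ovaries, and Inha made up much of the sum (2402 to 3021 CPM in tumours). Single markers went other ways: Amh read 0.0975 to 39.4 CPM in tumours, 6.59 to 16.3 in hyperplasias and 211 to 222 in wild-type ovaries, and tumour 2 held 1 count of Amh and 0 of Fshr. Tumour library 2 and wild-type library 1 stood apart from their groups, with a mean correlation with the other libraries of the group of 0.886 and 0.908, against 0.923 to 0.951 for the other 7 libraries. In these same libraries the deviation of a gene from its mean ran against gene length (Spearman's rho across genes -0.256 and -0.574, against 0.0702 to 0.357 in the others). For the 9 genes in tumours against wild type, and for Igf2, Rian, Dio3, Cobl, Osbpl5 and Dppa3, the difference is also given without these 2 libraries.

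The promoter sequences below show how unlike the start regions of these genes are, and where 2 short motifs lie in them. They come from RefSeq (GRCm38.p6) and run 5′ to 3′ on the strand of the gene, from 250 bases before its start to 50 bases after it; 8 of the 9 genes had an entry, with 12 entries in all. Plagl1 (entry chr10:13090582-13090881, plus strand) and Meg3 (chr12:109540746-109541045, plus strand, the first of 2 entries) are shown because the results turn on them. Dlk1 (chr12:109452573-109452872, plus strand) lies in the cluster of Meg3, and its entry is the only one with the forkhead core named below. Peg3 (chr7:6730370-6730669, minus strand) and Zim1 (chr7:6696383-6696682, minus strand) are shown because they are neighbours with like patterns over the libraries. Capitals mark the motifs. These are GTAAACA, a core bound by forkhead factors, and TGCCGC, the hexamer bound by ZFP57, a zinc finger protein that protects imprints, each searched on both strands.
Plagl1 promoter: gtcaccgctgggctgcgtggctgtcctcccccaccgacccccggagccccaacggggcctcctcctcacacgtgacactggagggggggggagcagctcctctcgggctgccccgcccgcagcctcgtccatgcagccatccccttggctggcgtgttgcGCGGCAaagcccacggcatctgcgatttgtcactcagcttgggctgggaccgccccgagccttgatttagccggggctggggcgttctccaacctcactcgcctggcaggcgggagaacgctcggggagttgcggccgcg
Peg3 promoter: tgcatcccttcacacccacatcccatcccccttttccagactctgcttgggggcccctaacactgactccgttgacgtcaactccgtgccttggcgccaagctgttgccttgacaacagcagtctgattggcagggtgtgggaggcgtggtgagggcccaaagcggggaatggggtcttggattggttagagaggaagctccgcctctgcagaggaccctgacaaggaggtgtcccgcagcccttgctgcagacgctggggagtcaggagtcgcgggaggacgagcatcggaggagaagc
Zim1 promoter: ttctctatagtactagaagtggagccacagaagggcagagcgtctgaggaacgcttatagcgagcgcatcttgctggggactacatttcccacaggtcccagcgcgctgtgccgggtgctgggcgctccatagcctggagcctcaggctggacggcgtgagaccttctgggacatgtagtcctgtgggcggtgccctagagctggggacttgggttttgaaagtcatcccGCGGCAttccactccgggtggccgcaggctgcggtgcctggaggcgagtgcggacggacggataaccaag
Dlk1 promoter: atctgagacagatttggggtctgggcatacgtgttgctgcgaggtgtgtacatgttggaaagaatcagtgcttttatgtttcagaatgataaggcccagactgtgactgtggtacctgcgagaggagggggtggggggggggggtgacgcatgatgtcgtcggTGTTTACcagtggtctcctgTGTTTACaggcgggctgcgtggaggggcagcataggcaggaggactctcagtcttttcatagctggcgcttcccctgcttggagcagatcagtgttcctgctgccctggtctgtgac
Meg3 promoter: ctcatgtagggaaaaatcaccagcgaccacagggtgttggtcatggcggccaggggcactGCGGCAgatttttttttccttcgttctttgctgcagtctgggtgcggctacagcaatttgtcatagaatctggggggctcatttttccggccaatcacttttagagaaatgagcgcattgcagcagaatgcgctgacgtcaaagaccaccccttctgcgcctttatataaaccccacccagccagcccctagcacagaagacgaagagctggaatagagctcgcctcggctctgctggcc

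The forkhead core was found in the Dlk1 entry alone among the 12 entries, with 2 matches whose first bases lie at positions -87 and -67 from the start, against 3.65% of all 32851 promoters of the same length. The ZFP57 hexamer was found in 6 of the 12 entries, from 5 genes (Meg3, Mest, Plagl1, Zim1 and Grb10), against 11.6% of all promoters; 2 of the 6 entries are Mest windows that overlap almost wholly. No entry held both motifs. The Plagl1, Zim1, Peg3, Meg3 and Dlk1 windows shown held 26, 20, 13, 13 and 9 CpG sites, against a median of 7 over all promoters, and the first Grb10 window held 45. A match is a description of letters, and binding was not measured.

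H19 is also the host of miR-675, whose 2 mature forms are shown because they are cut from the H19 transcript. Capitals mark the seed, bases 2 to 8, and the seeds differ between the arms. The arms lie at chr7:142577112-142577133 (5p) and chr7:142577078-142577099 (3p) on the minus strand (RefSeq, GRCm38.p6). Small RNAs were not measured, so no level of miR-675 is given.
miR-675-5p: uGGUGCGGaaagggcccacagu
miR-675-3p: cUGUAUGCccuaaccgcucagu

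The clearest differences among the 9 genes lay in tumours: the noncoding RNAs H19 and Meg3 were lower in all 3 tumours than in all 3 wild-type ovaries, and Plagl1 was higher in all 3. None of the 9 genes passed the test in any comparison (edgeR's quasi-likelihood test with Benjamini-Hochberg adjustment over 16213 genes, adjusted p under 0.05). The test called 1.6% of all genes in tumours against wild type, 0% in hyperplasias against wild type, 0.185% in tumours against hyperplasias and 0.0123% in all 6 mutant samples against wild type. Groups that did not overlap were seen for 3 of the 9 genes in tumours against wild type, against 24.1% of all genes tested (10.6% higher and 13.4% lower), so that share is near the background. In tumours against hyperplasias 2 of 9 did not overlap (Plagl1 higher and H19 lower), against 21.9% of all genes (9.54% higher and 12.4% lower), and in all mutant samples against wild type 1 of 9 (Plagl1 higher), against 4.32% (1.63% higher and 2.69% lower). In hyperplasias against wild type 4 of 9 did not overlap, all of them higher (Peg3, Plagl1, Zim1 and Ndn), against 9.81% of all genes (4.63% higher and 5.18% lower). Most of these gaps were narrow. The lowest hyperplasia and the highest wild-type ovary read 0.964 and 0.942 CPM for Zim1 (18 and 16 counts) and 70.1 and 68.5 for Plagl1. They read 31.4 and 30.3 CPM for Ndn and 65.3 and 47.5 for Peg3.

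An unadjusted p under 0.05 (edgeR) was found for 3 of the 9 genes in tumours against wild type (Plagl1, H19 and Meg3, against 20.1% of all genes), none in hyperplasias against wild type (3.53%), the same 3 genes in tumours against hyperplasias (14.1%) and 4 in all mutant samples against wild type (those 3 and Zim1, 11.8%). DESeq2 called Plagl1, H19 and Meg3 in tumours against wild type, where it called 10.8% of all genes, and Plagl1 alone in all mutant samples against wild type, where it called 3.65%. It called none of the 9 in the other 2 comparisons, where it called 0.117% of genes (hyperplasias against wild type) and 5.03% (tumours against hyperplasias). The median fitted log2 fold change over the 9 genes was 0.45 in tumours against wild type, beside 0.01 over all genes tested, and 0.18 in hyperplasias against wild type. Fewer cells of a type and less RNA per cell cannot be told apart in such bulk samples.

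**Figure D1:**
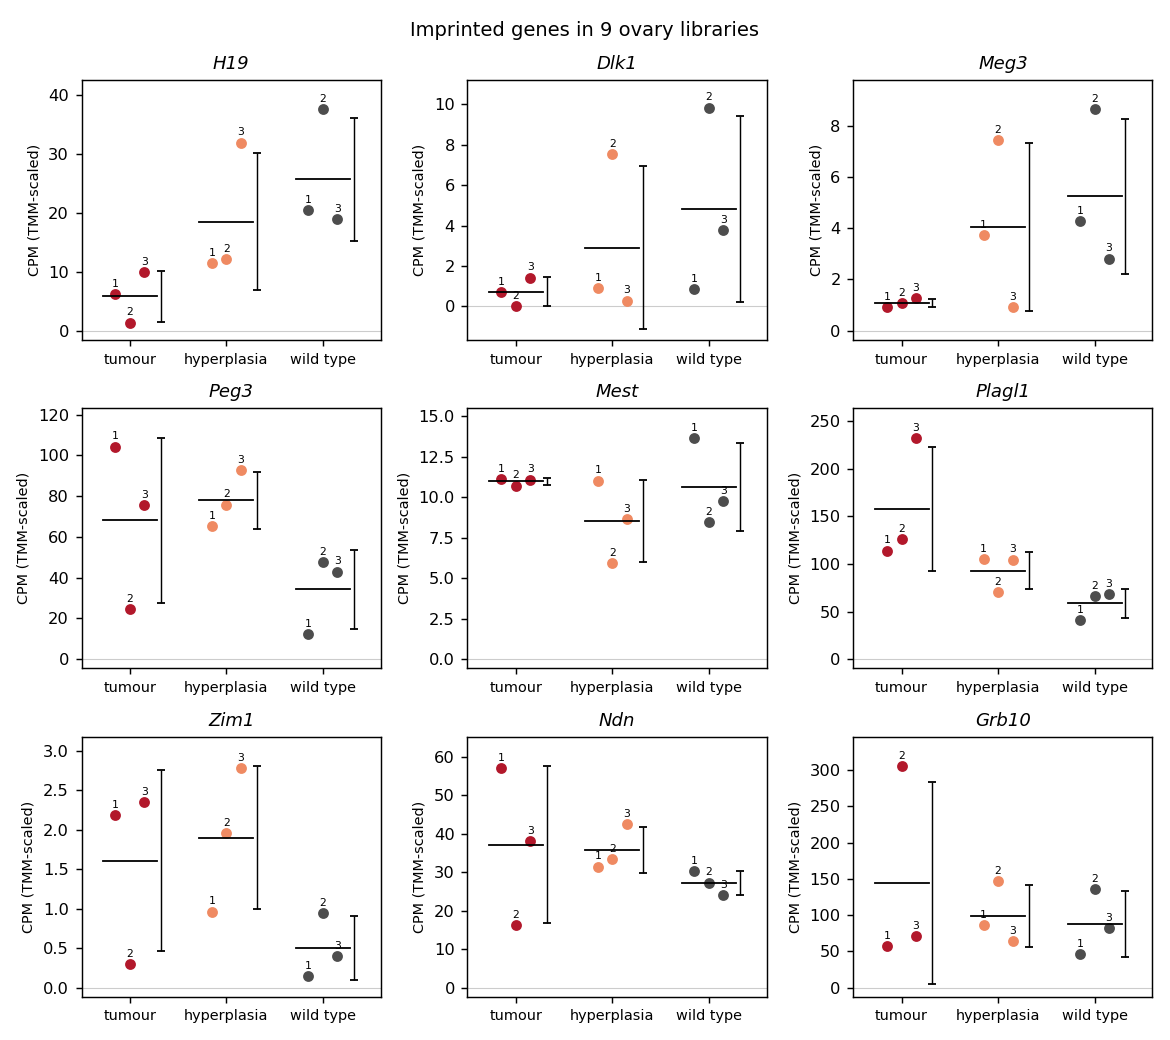
Level of each of the 9 genes in CPM (TMM-scaled, linear axis) in every library, with the libraries of tumour, hyperplasia and wild type from left to right and numbered 1 to 3. Horizontal lines are group means and error bars 1 SD (n = 3). H19 and Meg3 lie lower in all 3 tumours than in any wild-type ovary, Plagl1 lies higher, and Grb10 is carried by tumour library 2 at 305 CPM.

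H19, a long noncoding RNA that shares enhancers with the growth factor gene Igf2, lies at chr7:142575529-142578143 on the minus strand. It read 6.22, 1.37 and 9.996 CPM in tumours 1, 2 and 3, against 20.5, 37.7 and 18.97 in the wild-type ovaries. All 3 tumours lay below all wild-type ovaries, and tumour 2 was the lowest. The fitted level was 4.37-fold lower in tumours (log2 fold change -2.13, SE 0.68, edgeR adjusted p = 0.129). Hyperplasias held 11.5, 12.1 and 31.97 CPM, overlapping with wild type (log2 fold change -0.47) and lying above every tumour (tumours against hyperplasias -1.65, SE 0.67, edgeR adjusted p = 0.316). The difference between tumours and wild type ran from -2.75 to -1.66 under 16 other settings, with adjusted p from 0.0188 (DESeq2) to 0.307, and was -1.83 (SE 0.61) without the 2 libraries that stood apart. It was -2.74 without tumour library 3 and -2.75 with a term for the shared title stem.

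Dlk1 and Meg3 sit in one cluster on chromosome 12. Dlk1, a membrane protein related to the ligands of Notch, is at chr12:109452823-109463336 and Meg3, a long noncoding RNA of the maternal copy, at chr12:109541001-109571726, both on the plus strand. Meg3 read 0.927, 1.07 and 1.26 CPM in tumours, 3.75, 7.46 and 0.911 in hyperplasias and 4.28, 8.66 and 2.82 in wild-type ovaries. In CPM the 3 tumours, with 11 to 15 counts each, lay below every wild-type ovary, while hyperplasia 3 was as low as a tumour. In TPM the tumours spread more, at 0.71, 0.24 and 2.16, against 3.63, 10.65 and 3.78 in wild-type ovaries, with weighted transcript lengths of 2140, 4477 and 1164 bases in the tumours. Meg3 was 4.81-fold lower in tumours than in wild type (log2 fold change -2.27, SE 0.74, edgeR adjusted p = 0.135), and -1.88 (SE 0.74, adjusted p = 0.302) in tumours against hyperplasias. Without the 2 libraries that stood apart the first of these was -2.41 (SE 0.99, edgeR adjusted p = 0.200). Hyperplasias against wild type gave -0.38, a direction that turned to 0.19 without wild-type library 2 and to 0.09 without hyperplasia library 3.

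Dlk1 read 0.728, 0 and 1.43 CPM in tumours, 0.910, 7.53 and 0.288 in hyperplasias and 0.845, 9.83 and 3.79 in wild-type ovaries. The groups overlapped, because wild-type library 1 was as low as the tumours. Tumour 2 held no Dlk1 count, the only 0 among the 9 genes in any library, where 3 counts would be 0.293 CPM. The fitted difference in tumours against wild type was -2.71 with a wide error (SE 1.42, edgeR adjusted p = 0.329), and -2.69 (SE 1.40) without the 2 libraries that stood apart. It was -1.66 without wild-type library 2 and -3.60 without tumour library 3. Dlk1 and Meg3 were both highest in wild-type library 2 and hyperplasia library 2. Those are also the libraries with the highest summed level of 6 stromal fibroblast markers. The sum was 6448 CPM in hyperplasia 2 and 6120 in wild type 2, against 1854 to 5334 in the tumours. Of the 6, Col1a1 and Col3a1 were highest in these libraries. Col1a2, Pdgfra, Lum and Tcf21 read higher in tumours 1 and 3 than in either. Pdgfra read 805 and 915 CPM there, against 475 in hyperplasia 2 and 447 in wild type 2. The part of stroma in the result was not tested. Without hyperplasia library 2, Dlk1 in tumours against hyperplasias gave 0.27 in place of -1.97, and without wild-type library 2, hyperplasias against wild type gave 0.31 in place of -0.74.

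Plagl1, a zinc finger transcription factor that restrains cell division and regulates other imprinted genes in the mouse, lies at chr10:13060504-13131694 on the plus strand. It read 114, 126 and 233 CPM in tumours, 105, 70.1 and 104 in hyperplasias and 40.9, 66.2 and 68.5 in wild-type ovaries. The 3 groups did not overlap at any step: every tumour was above every hyperplasia, and every hyperplasia above every wild-type ovary. Tumours were 2.69-fold higher than wild type (log2 fold change 1.43, SE 0.34, unadjusted p = 0.00212 and adjusted p = 0.0685, edgeR), and 0.76 (SE 0.33, edgeR adjusted p = 0.351) above hyperplasias on the log2 scale. Over all 6 mutant samples against wild type the difference was 1.05 (SE 0.30, edgeR adjusted p = 0.196). Plagl1 passed the threshold for tumours against wild type in DESeq2 (adjusted p = 0.00333) and without the filter on low counts (edgeR adjusted p = 0.0383).

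In TPM, which divides by the length of the transcripts RSEM assigned, Plagl1 read 53.2, 35.8 and 106 in tumours, 53.9, 42.7 and 45.0 in hyperplasias and 8.91, 35.8 and 35.6 in wild-type ovaries. On that scale tumour 2 and wild-type library 2 were almost equal, and tumours overlapped with hyperplasias. The weighted transcript length of Plagl1 was 5200 bases in wild-type library 1, against 3419 to 3743 bases in tumours and 2944 to 3885 in hyperplasias. Without tumour library 2 and wild-type library 1 the difference between tumours and wild type was 1.34 (SE 0.36, edgeR adjusted p = 0.111).

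Peg3 and Zim1 are zinc finger genes that lie beside each other on the minus strand of chromosome 7, Peg3 at chr7:6703892-6730431 and Zim1 at chr7:6671269-6696450. Peg3 read 104, 24.4 and 75.7 CPM in tumours, 65.3, 75.9 and 93.0 in hyperplasias and 12.2, 47.5 and 42.9 in wild-type ovaries. All 3 hyperplasias exceeded all wild-type ovaries (log2 fold change 1.19, SE 0.58, edgeR adjusted p = 0.999), and so did tumours 1 and 3, but not tumour 2. Without the 2 libraries that stood apart, hyperplasias against wild type gave 0.78 (SE 0.20, edgeR adjusted p = 0.757) for Peg3, 1.49 (SE 0.61) for Zim1, 0.47 (SE 0.33) for Plagl1 and 0.48 (SE 0.22) for Ndn. Zim1 drew few counts and read 2.18, 0.293 and 2.35 CPM in tumours, 0.964, 1.96 and 2.78 in hyperplasias and 0.149, 0.942 and 0.402 in wild-type ovaries. Its values rest on 3 to 58 counts a library, and tumour 2 and wild type 1, each with 3 counts, were the lowest, as they were for Peg3. In tumours against wild type Peg3 gave 1.00 (SE 0.58, edgeR adjusted p = 0.377) and Zim1 1.70 (SE 0.86, adjusted p = 0.309).

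Tumour library 2 and wild-type library 1, the pair that stood apart, thus hold the lowest Peg3 and Zim1 of their groups. They are also the libraries in which long genes read low, and Peg3, with a mean length of 8656 bases, is longer than 98.4% of the genes tested, and Zim1, with 6370 bases, longer than 94.6%. Their summed stromal fibroblast markers were 1854 and 1858 CPM, against 3033 to 6448 in the other 7 libraries. Single markers differed from the sum: Lum and Tcf21 read 252 and 99.4 CPM in wild type 1, above wild type 2 (236 and 56.6). The part of gene length and that of stroma were not tested. Without this pair Peg3 in tumours against wild type gave 0.97 with an SE of 0.22 (edgeR adjusted p = 0.0940), and Zim1 1.72 (SE 0.65, adjusted p = 0.178). Zim1 moved more under other settings, to 2.54 without wild-type library 2 and to 0.32 on the log2(TPM + 1) scale. In tumours against hyperplasias the small differences of Peg3 (-0.19) and Zim1 (-0.23) turned to 0.18 and 0.23 without the pair, and to 0.21 and 0.25 without tumour library 2 alone. That of Zim1 also turned, to 0.16, without hyperplasia library 3.

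**Figure D2:**
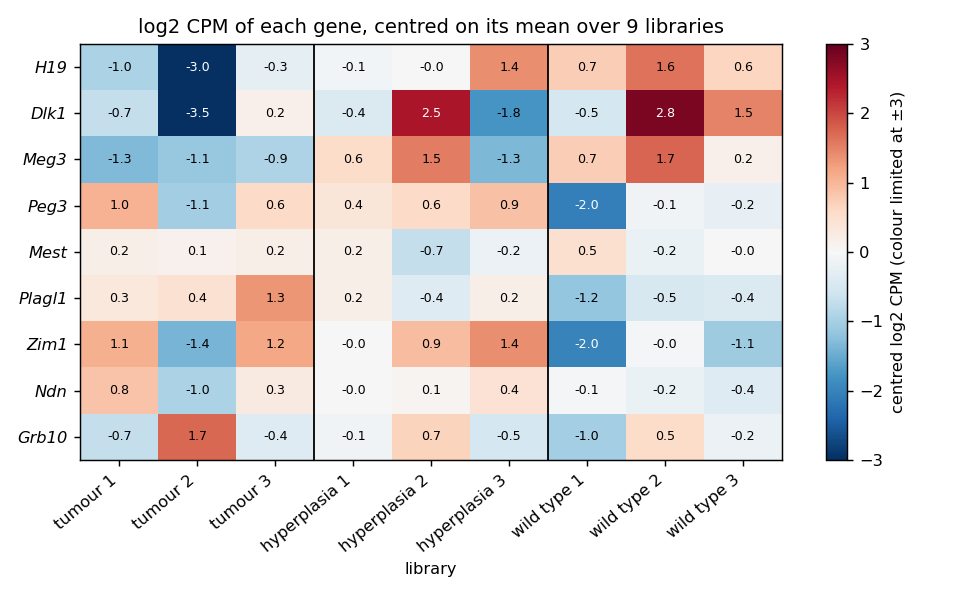
Log2 CPM of the 9 genes in each of the 9 libraries, centred on the mean of each gene (numbers and colours in log2 units, colours limited at 3 units, rows are genes, columns are libraries with tumours first). Peg3 and Zim1 share their lows in tumour library 2 and wild-type library 1, and Dlk1 and Meg3 share their highs in hyperplasia library 2 and wild-type library 2.

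Ndn, which encodes necdin, a growth suppressor best known from neurons, lies at chr7:62346569-62350262 on the plus strand. It read 57.0, 16.2 and 38.1 CPM in tumours, 31.4, 33.3 and 42.5 in hyperplasias and 30.3, 27.3 and 24.0 in wild-type ovaries. Hyperplasias lay just above wild type in all 3 libraries (log2 fold change 0.39, SE 0.39, edgeR adjusted p = 0.999), and the tumours spanned both groups. In tumours against wild type the difference was 0.45 (SE 0.39, edgeR adjusted p = 0.565), and 0.86 (SE 0.24, adjusted p = 0.115) without the pair of libraries that stood apart. Tumours against hyperplasias differed by 0.06 (edgeR adjusted p = 0.967), and the sign of that value changed under 4 settings.

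Grb10, an adaptor protein that inhibits signalling by the insulin and IGF receptors, lies at chr11:11930508-12038683 on the minus strand. It read 56.9, 305 and 71.2 CPM in tumours, 86.6, 146 and 64.0 in hyperplasias and 45.8, 135 and 81.6 in wild-type ovaries. All groups overlapped, and tumour 2 alone was more than every other library. The fitted difference in tumours against wild type, 0.72 (SE 0.66, edgeR adjusted p = 0.591), turned to -0.45 without tumour library 2 and to -0.79 without both libraries that stood apart. In tumours against hyperplasias 0.55 likewise turned to -0.63 and -0.65.

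Mest, a member of the alpha/beta hydrolase fold family, lies at chr6:30723547-30748465 on the plus strand and varied least among the 9 genes. It read 11.1, 10.7 and 11.1 CPM in tumours, 11.03, 5.94 and 8.67 in hyperplasias and 13.7, 8.48 and 9.77 in wild-type ovaries. The groups overlapped, and the difference in tumours against wild type was 0.04 (SE 0.32, edgeR adjusted p = 0.958), within about 1 SE of 0; it was 0.26 (SE 0.33) without the 2 libraries that stood apart. Mest counts are uncertain, because 912 of its 3945 exon bases (23.1%) overlap with exons of Copg2 on the other strand, which drew 10536 counts over the 9 libraries, and whether the counting used strand is not stated in the labels or headers. Meg3 overlaps with the opposite-strand gene Gm26906 over 1228 bases, which drew 0 counts.

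**Figure D3:**
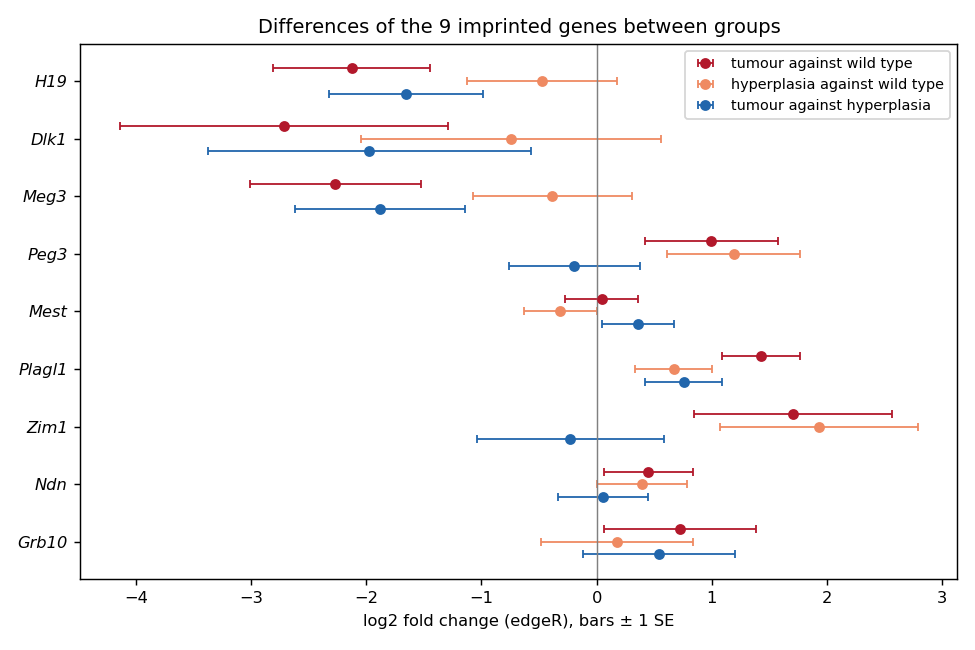
Log2 fold change of each of the 9 genes with 1 SE on either side (horizontal bars), from the edgeR fit over 9 libraries, for tumours against wild type (red), hyperplasias against wild type (orange) and tumours against hyperplasias (blue). H19 and Meg3 lie below 0 and Plagl1 above 0 in tumours against wild type, at -2.13, -2.27 and 1.43.

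Levels per transcript length, in TPM, ordered the genes differently in the 3 groups. In tumours Plagl1 was highest (65.1 ± 36.7, SD, n = 3), then Grb10 (34.4 ± 23.4), Ndn (15.5 ± 10.2), Peg3 (11.9 ± 8.22), Mest (6.54 ± 1.99), H19 (4.53 ± 3.59), Meg3 (1.04 ± 1.00), Dlk1 (1.01 ± 0.890) and Zim1 (0.403 ± 0.248), and each overlapped with its neighbour in this order. In hyperplasias Plagl1 (47.2 ± 5.90) led Grb10 (34.0 ± 15.02), Ndn (16.8 ± 2.27), Peg3 (15.1 ± 2.25), H19 (14.8 ± 8.57), Mest (6.48 ± 1.82), Meg3 (4.56 ± 3.88), Dlk1 (3.91 ± 5.19) and Zim1 (0.483 ± 0.220), and of these neighbours Grb10 and Ndn, and H19 and Mest, did not overlap. In wild-type ovaries Grb10 (29.3 ± 18.8) and Plagl1 (26.8 ± 15.5) were followed by H19 (20.04 ± 9.76), Ndn (11.4 ± 1.95), Mest (7.41 ± 0.531), Peg3 (6.55 ± 4.36), Dlk1 (6.32 ± 5.77), Meg3 (6.02 ± 4.01) and Zim1 (0.117 ± 0.0950). H19 was thus the third in wild type and the sixth in tumours. Of the wild-type neighbours, H19 and Ndn, Ndn and Mest, and Meg3 and Zim1 did not overlap.

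The neighbours of the 9 genes in their clusters were examined from a list of 73 imprinted genes grouped by domain, of which 58 were tested. Igf2, the growth factor next to H19 that is expressed from the paternal copy, read 3.77, 0.780 and 5.29 CPM in tumours, 23.3, 14.3 and 15.1 in hyperplasias and 13.8, 13.7 and 14.1 in wild-type ovaries. Tumours lay below both other groups, as for H19, and all 3 hyperplasias above wild type. Igf2 gave -2.07 (SE 0.55, edgeR adjusted p = 0.0871) in tumours against wild type and -2.41 (SE 0.56, adjusted p = 0.125) against hyperplasias. In tumours against wild type it was called lower by DESeq2 (adjusted p = 0.0036) and without the low-count filter (edgeR adjusted p = 0.0498), and was -1.64 (adjusted p = 0.0802) without the 2 libraries that stood apart. On chromosome 12, Rian, a noncoding RNA downstream of Meg3, read 7.22, 0.293 and 8.82 CPM in tumours and 14.5, 22.6 and 10.6 in wild-type ovaries, with no overlap (log2 fold change -1.54, SE 0.89, edgeR adjusted p = 0.381; -1.07 without the 2 libraries that stood apart). Dio3, which inactivates thyroid hormone and lies at the far end of that cluster, gave -1.27 (SE 0.53, edgeR adjusted p = 0.222). Without the 2 libraries that stood apart Dio3 gave -1.54 (SE 0.60, edgeR adjusted p = 0.187). Rtl1 and Mirg, at no more than 0.353 and 0.756 CPM in any library, were not tested.

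Around Peg3, Usp29 and Zfp264 read at most 0.707 and 1.12 CPM and were not tested. Around Ndn, Snrpn, a splicing protein gene, gave 0.41 (SE 0.41, edgeR adjusted p = 0.620) and Mkrn3 0.61 (SE 0.51, adjusted p = 0.549) in tumours against wild type. In the same cluster Peg12 (-0.46), Ube3a (-0.41) and Atp10a (-0.07) were fitted lower with overlapping groups, and the values of Snurf, which shares exons with Snrpn, are uncertain. Cobl, an actin nucleator beside Grb10, read 18.1, 19.2 and 12.7 CPM in tumours and 5.37, 8.13 and 7.82 in wild-type ovaries, with no overlap. The difference was 1.23 (SE 0.34, edgeR adjusted p = 0.0962), and 0.92 without the 2 libraries that stood apart. DESeq2 called Cobl higher in tumours against wild type (adjusted p = 0.0104) and in tumours against hyperplasias (adjusted p = 0.0229). Copg2, beside Mest, lay between 76.2 and 87.0 CPM in tumours and between 68.1 and 73.5 in wild-type ovaries (0.24, SE 0.16, edgeR adjusted p = 0.458). In the cluster of Dlk1 and Meg3 the other tested genes, Rian and Dio3, were both fitted lower, and neither was called by edgeR or DESeq2. In the H19-Igf2 and Kcnq1 domains of chromosome 7 the other 10 tested genes were split, 5 lower (Igf2, Tspan32, Cdkn1c, Kcnq1ot1 and Kcnq1) and 5 higher (Osbpl5, Slc22a18, Cd81, Nap1l4 and Tssc4).

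**Figure D4:**
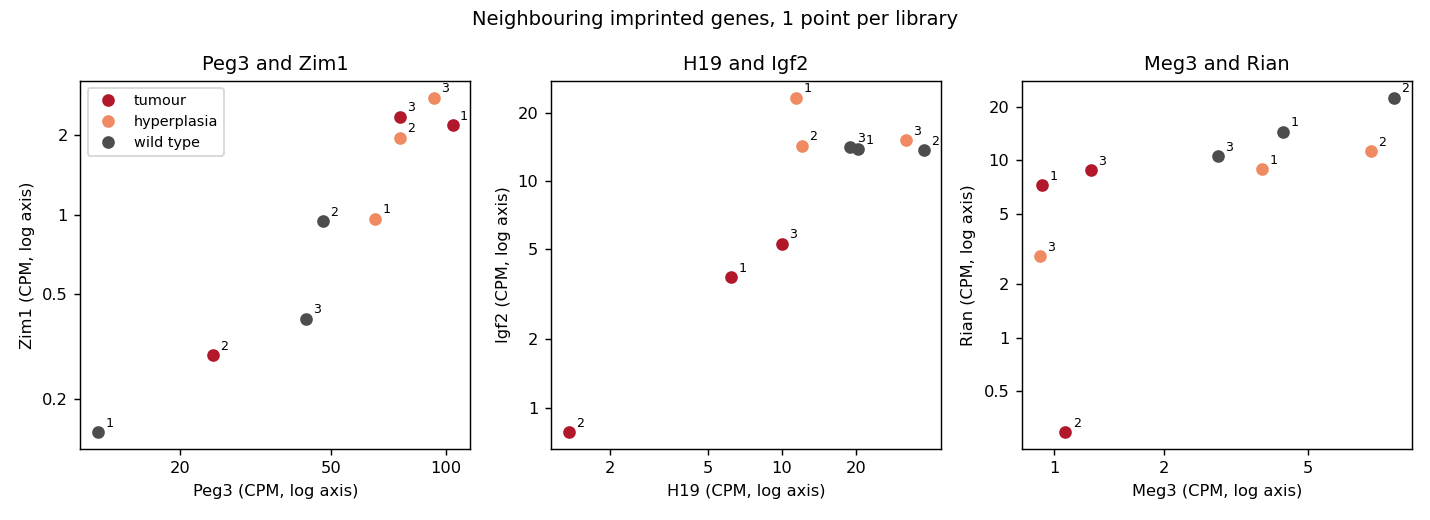
CPM of neighbouring genes plotted against each other on log axes, 1 numbered point per library (tumour red, hyperplasia orange, wild type grey), for Peg3 with Zim1, H19 with Igf2 and Meg3 with Rian. The 3 tumours lie below all wild-type ovaries on both axes for H19 with Igf2 and for Meg3 with Rian, and tumour 2 and wild type 1 are the lowest points for Peg3 with Zim1.

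Over the whole list of imprinted genes, 1 of 58 passed the test in tumours against wild type, against 1.6% of all genes. That gene was Osbpl5, a lipid transfer protein of the chromosome 7 cluster, which rose to 243, 246 and 151 CPM in tumours, against 43.6, 65.3 and 79.2 in wild-type ovaries (log2 fold change 1.77, SE 0.34, edgeR adjusted p = 0.0464). It read 69.0, 68.2 and 122 CPM in hyperplasias. Its adjusted p (edgeR) passed the threshold without hyperplasia 3 (0.0279) and missed it without any one of the other 8 libraries, at 0.0527 (hyperplasia 1) to 0.127 (tumour 1), with log2 fold changes of 1.56 to 1.97. It also missed the threshold with a term for the shared title stem (0.0828), on log2(TPM + 1) in limma (0.0513) and without the 2 libraries that stood apart (log2 fold change 1.42, edgeR adjusted p = 0.103). Osbpl5 passed with DESeq2 (adjusted p = 9.52e-05). In edgeR it passed without the low-count filter (adjusted p = 0.0142), with only the groups compared (0.0466) and with the size factors of DESeq2 (0.0468). The list was split evenly, with 28 genes fitted higher and 30 lower and a median of -0.04, beside 0.01 over all genes. Groups did not overlap for 8 higher and 10 lower genes of the 58, against 10.6% and 13.4% of all genes. Hyperplasias against wild type, tumours against hyperplasias and all mutant samples against wild type gave 0 calls in the list with edgeR. At an unadjusted p under 0.05 (edgeR) tumours against wild type gave 19 of the 58 genes, against 20.1% of all genes, and these 3 comparisons gave 0, 19 and 10, against 3.53%, 14.1% and 11.8%. DESeq2 called 11 of the 58 in tumours against wild type, against 10.8% of all genes, and 0, 4 and 3 in the other 3, against 0.117%, 5.03% and 3.65%.

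Genes of the list that read far apart were Nnat, a small membrane protein gene, and Gpr1, a chemerin receptor. Nnat read 66.4, 1124 and 75.7 CPM in tumours, 21.2, 9.64 and 26.5 in hyperplasias and 66.6, 31.3 and 28.5 in wild-type ovaries, so that tumour 2 alone set its mean. Gpr1 had no counts in the 3 tumours and 0.862 to 1.24 CPM in wild-type ovaries (edgeR adjusted p = 0.0760). In hyperplasias it read 0.428, 0.217 and 0 CPM. For tumours against wild type Gpr1 passed with DESeq2 (adjusted p = 0.00906) and on log2(TPM + 1) in limma (adjusted p = 0.0216). In edgeR it passed without the low-count filter (adjusted p = 0.0405), with only the groups compared (0.0393) and without hyperplasia 3 (0.0346). It missed the threshold under the other settings. These 2 genes were chosen after their values were seen.

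**Figure D5:**
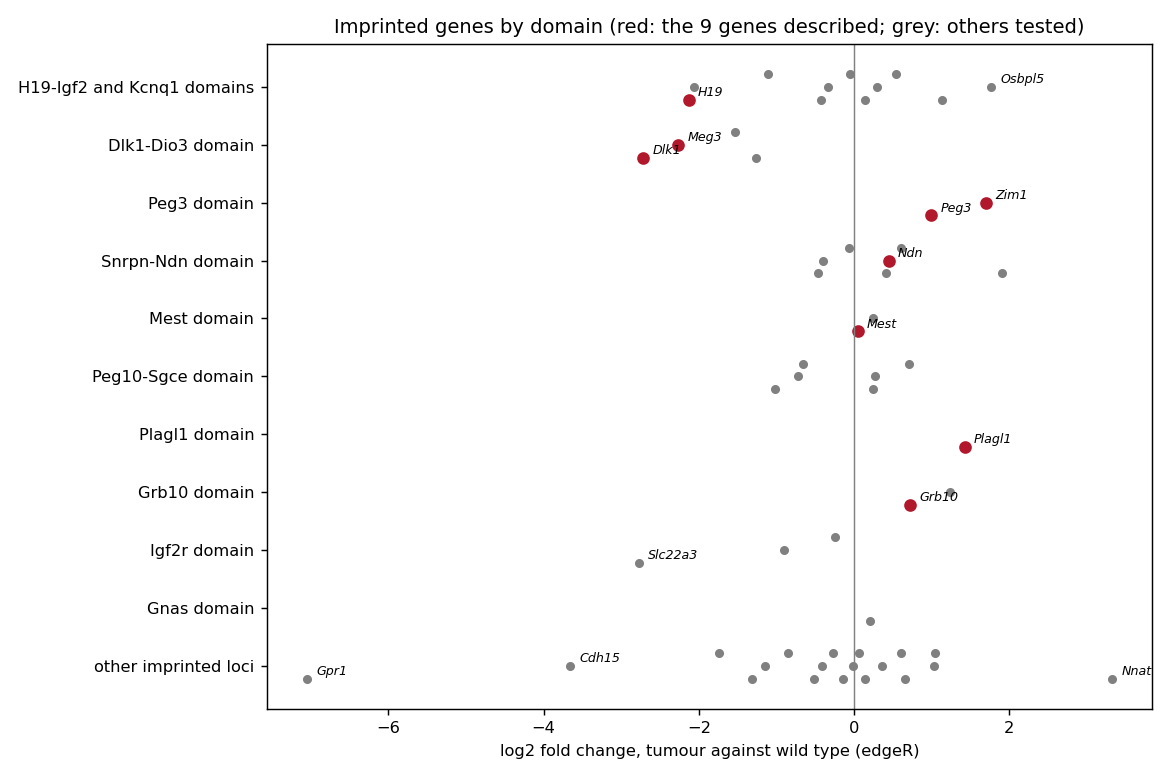
Log2 fold change in tumours against wild type of the 58 tested imprinted genes (points), grouped by domain, with the 9 genes described in red. Points lie on both sides of 0, with 28 higher and 30 lower, and Osbpl5 at 1.77 is the gene that passed the test. Gpr1, farthest left, had no counts in tumours, so its place depends on the fit and is no bound.

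The 9 genes include 8 of a known mouse network of 15 imprinted genes whose levels fall together as growth slows after birth and which Plagl1 can regulate. In tumours against wild type 8 of the 15 were fitted higher and 7 lower, and 0 passed the test with edgeR (5 at an unadjusted p under 0.05, against 20.1% of all genes). Besides those described, Gatm, which makes a precursor of creatine, gave -1.32 (SE 0.31, edgeR adjusted p = 0.0669), Cdkn1c, an inhibitor of cell division, -0.43 (adjusted p = 0.702), and Dcn, a matrix proteoglycan, 0.35 (adjusted p = 0.781). Gatm passed in this comparison with DESeq2 (adjusted p = 0.00307) and without the low-count filter (edgeR adjusted p = 0.0388). The 15 genes were split in direction, with a median log2 fold change of 0.04 beside 0.01 over all genes.

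Of 17 factors that set or keep imprints, 16 were tested, and 1 passed in tumours against wild type, against 1.6% of all genes. This was Dppa3, which protects methylation in the early embryo and is made by oocytes. It had 1, 0 and 1 counts in tumours, 61, 14 and 7 in hyperplasias and 346, 96 and 142 in wild-type ovaries (log2 fold change -7.41, SE 1.13, edgeR adjusted p = 0.0339). That call held without hyperplasia 1 or hyperplasia 3 and missed the threshold without any one of the other 7 libraries, at an adjusted p (edgeR) of 0.0501 (hyperplasia 2) to 0.124 (tumour 1). It also missed it with a term for the shared title stem (0.0523) and without the 2 libraries that stood apart (log2 fold change -6.43, edgeR adjusted p = 0.0802). Dppa3 passed with DESeq2 (adjusted p = 9.52e-07) and on log2(TPM + 1) in limma (adjusted p = 0.00610). In edgeR it passed without the low-count filter (adjusted p = 0.00328), with only the groups compared (0.0181) and with the size factors of DESeq2 (0.0353). Dnmt3l, a cofactor of methylation in germ cells, gave -3.63 (SE 0.85, edgeR adjusted p = 0.0673), Zfp57 -1.89 (SE 0.52, adjusted p = 0.0949) and Trim28, its widely expressed partner, 0.41 (SE 0.19, adjusted p = 0.281). The 12 oocyte markers, Dppa3 among them, summed to 5.07 to 23.8 CPM in tumours, 16.8 to 98.2 in hyperplasias and 167 to 222 in wild-type ovaries. Zp2, Figla, Oosp1 and Nlrp5 were at 0 in all tumours. Ooep did not follow the others, at 20.6, 0 and 11.9 CPM in tumours and 24.6, 10.7 and 13.6 in wild-type ovaries. It made up most of the sum in tumours 1 and 3 and in hyperplasia 3 (12.9 CPM). The part of oocytes in these values was not tested.

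Markers of other cells also moved with the tumours, beside H19, Meg3, Igf2 and Plagl1. The 9 luteal cell markers summed to 4075 to 4236 CPM in tumours, 10283 to 18126 in hyperplasias and 13117 to 30042 in wild-type ovaries. In tumours against wild type edgeR called 3 of these 9 markers lower. It also called lower 5 of 11 oocyte markers tested, 1 of 6 macrophage markers and 1 of 5 adipocyte markers tested. No marker of any list was called higher. Of all 16213 genes tested, 202 were called lower. The 6 macrophage markers summed to 94.7 to 150 CPM in tumours, 202 to 244 in hyperplasias and 237 to 280 in wild-type ovaries. Smooth muscle markers (7 genes) summed to 341 to 1001 CPM in tumours, 2561 to 6205 in hyperplasias and 1129 to 2484 in wild-type ovaries, and 4 of 6 adipocyte markers, Adipoq, Cfd, Retn and Lep, were at 0 in tumours. The 6 surface epithelium markers read 1702, 1.37 and 604 CPM in tumours 1, 2 and 3, against 221 to 700 in hyperplasias and 210 to 252 in wild-type ovaries. The 3 oviduct markers summed to 87.1 CPM in wild type 2, most of it Ovgp1 (81.3), against 9.05 and 2.01 in wild types 1 and 3. They summed to 1.55 to 2.03 CPM in hyperplasias and 0.390 to 0.756 in tumours. Wild type 2 was also the library with the highest H19, Dlk1, Meg3 and Rian. The part of these cells in the levels of the imprinted genes was not tested.

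The genes whose pattern over the 9 libraries was most like each of the 9 were found among 12087 genes that averaged 5 CPM or more, by the root mean square difference of centred log2 CPM. Zim1 was nearest to its neighbour Peg3, at 0.434 log2 units, against a median of 1.23 for Zim1 over all candidates. That was the smallest difference of the 36 pairs among the 9 genes, followed by Mest with Ndn (0.586). The median over all candidates was 0.505 for Mest and 0.630 for Ndn, so Ndn was farther from Mest than a typical candidate was. Plagl1 was nearest to Atrnl1 (0.224) and Smad3 (0.239), and Meg3 to Abca7 (0.409) and Me1 (0.472). H19 was nearest to Gm8113 (0.503) and Cfp (0.528), Peg3 to Camk1d (0.264) and Med12l (0.274), and Ndn to Rassf3 (0.124). Grb10 was nearest to Hs3st1 (0.242) and Loxl1 (0.272), Mest to Gm20604 (0.157), and Dlk1 had no gene nearer than Scrn1 at 0.888.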

How the data were processed

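RNA-seq was measured in 9 mouse ovary samples, 3 per group. Trizol was used for RNA and a stranded TruSeq mRNA kit for the libraries, per the labels' protocols. RSEM 1.3.1, STAR 2.7.1a, Picard 2.8.1, FastQC and GRCm38 are named in the submitters' processing notes. The authors deposited, per the file headers, RSEM expected counts, TPM, FPKM and gene lengths per library. The deposited expected counts were not normalised (25.6% of values above 0 were not whole, tolerance 0.001). The deposited TPM, scaled by the authors for length and depth, served for levels and 1 alternative, and the deposited FPKM was not used. RSEM shares reads between similar genes.

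Expected counts were rounded and tested with edgeR 4.0.16 (R 4.3.3): TMM scaling (factors 0.797 to 1.078), filterByExpr (count minimum 10, total minimum 15; 16213 genes), and the quasi-likelihood test in 1 fit over 9 libraries and 3 groups, with p-values adjusted by Benjamini and Hochberg at 0.05. The common biological coefficient of variation was 0.432. Symbols and coordinates came from GENCODE M21 (GRCm38), which held 55450 of 55536 identifiers, and sequences from RefSeq tables (GRCm38.p6). No 2 libraries were duplicates (smallest chi-square per degree of freedom 26.6). That smallest value was for wild type 2 with hyperplasia 2, followed by hyperplasia 3 with tumour 3 (31.5), which share a title stem. Both pairs cross groups. The closest pair within a group was wild type 2 with wild type 3 (44.5).

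Alternatives were the size factors of DESeq2, the Wald test of DESeq2 1.42.0, no filter, limma 3.58.1 on log2(TPM + 1), only the groups compared, a term for the shared title stem, leaving out each library, and leaving out tumour library 2 and wild-type library 1. The test was tried on simulated data. The members, lists and tests were chosen with earlier results of these data known. Besides the 9 genes, the text names cluster neighbours, called genes and the nearest patterns. Floors cover counting error only.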

Additional observations from a re-analysis of the deposited data

Results flagged for a closer look

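Igf2, the neighbour of H19, read below wild type in tumours and just above it in hyperplasias. It read 3.77, 0.780 and 5.29 CPM in tumours, 23.3, 14.3 and 15.1 in hyperplasias and 13.8, 13.7 and 14.1 in wild-type ovaries. Every tumour lay below every wild-type ovary and every hyperplasia above, which is why it is set out here. Tumours minus hyperplasias gave -2.41 on the log2 scale (SE 0.56, edgeR adjusted p = 0.125), which does not pass the threshold, and DESeq2 gave an adjusted p of 7.16e-04 for the same difference. The hyperplasias exceeded wild type by 0.35 (SE 0.52, edgeR adjusted p = 0.999), within 1 SE of 0. The lowest hyperplasia read 14.3 CPM and the highest wild-type ovary 14.1, so a rise in hyperplasias is not established. Igf2 was found by searching the imprinted list for this order of groups, and the share of all genes with it was not counted.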

How the results depend on the processing

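No paired analysis was possible because the labels carry no replicate numbers shared between groups; a term for the 1 shared title stem stood in for it. Of 576 log2 fold changes of the 9 genes over 4 comparisons and 16 settings, 28 changed sign. Outside the libraries left out singly, these were for tumours against wild type Mest (-0.19, log2(TPM + 1)) and Grb10 (-0.79, without both libraries that stood apart), for hyperplasias against wild type Grb10 (-0.14, without both), for tumours against hyperplasias Ndn (-0.37) and Grb10 (-0.094) on log2(TPM + 1), and Peg3 (0.18), Zim1 (0.23) and Grb10 (-0.65) without both, and for all mutant samples against wild type Mest (0.082) and Grb10 (-0.46) without both.

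Leaving out 1 library at a time moved these values across 0. In tumours against wild type Mest ran from -0.11 to 0.27 and Grb10 from -0.45 (without tumour 2) to 1.14. In hyperplasias against wild type Dlk1 ran from -2.98 to 0.31 and Meg3 from -1.15 to 0.19 (both highest without wild type 2), and Grb10 from -0.20 to 0.64. In tumours against hyperplasias Dlk1 ran from -2.86 to 0.27 (without hyperplasia 2), Peg3 from -0.64 to 0.21, Zim1 from -0.59 to 0.25 and Grb10 from -0.63 to 0.93 (Peg3 and Zim1 highest and Grb10 lowest without tumour 2), and Ndn from -0.39 (without tumour 1) to 0.41. In all mutant samples against wild type Mest ran from -0.27 to 0.088 and Grb10 from -0.14 to 0.89.

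The number of the 9 genes called in tumours against wild type was 3 with DESeq2 and 1 without a filter, against 0, and in all mutant samples 1 with DESeq2. In tumours against wild type the main edgeR test called 1.6% of all genes and DESeq2 10.8%. The share of all genes called was not counted under the other settings, so their counts cannot be set against a background. In the imprinted list the number of genes with an adjusted p changed with the setting. Tumours against wild type gave 11 calls of 57 genes with DESeq2, 5 of 73 without a filter and 2 of 55 with only the groups compared. They gave 0 of 58 with the stem term and 0 of 59 without both libraries, against 1 of 58. With 1 library left out they gave 0 to 2 calls of 59 to 61 genes. Tumours against hyperplasias gave 4 with DESeq2 and 1 without a filter, and all mutant samples 3 with DESeq2 and 1 on log2(TPM + 1), against 0 each. The cause was not tested. Low counts limit Zim1, Dlk1 and Meg3.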
